A study of Homo sapiens with 12 samples.

Results

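A set of 10 genes that mark the gastric epithelial lineage was followed across RNA-seq libraries of MKN28 and MKN45, established cell lines from human gastric adenocarcinomas. The set was given by symbol and comprised the mucins MUC5AC, MUC6 and MUC1, the trefoil factors TFF1, TFF2 and TFF3, and the differentiation genes GKN1, PGC, ANXA10 and CLDN18. All 10 were found among the 50868 Ensembl identifiers of the count table, each by 1 identifier. Of the 4 groups of 3 libraries, the first was MKN45 cells transduced with a lentivirus that carries ZNF165 (overexpression), followed by MKN45 controls transduced with a control lentivirus, MKN28 cells given a lentiviral siRNA against ZNF165 (knockdown), and MKN28 controls with the control lentivirus. All 12 libraries therefore came from lentivirus-transduced cells, and the genotype field calls both control groups WT. ZNF165 belongs to the SCAN-domain family of zinc-finger proteins, and its normal expression lies mainly in the testis. MKN28 is listed in cell line registers as misidentified, with the DNA profile of another gastric line, MKN74. The labels do not state whether replicates were separate cultures or whether cells were clones or pools, so p-values reflect how far these libraries spread, a spread that could be technical.

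In the normal stomach, surface pit cells secrete MUC5AC with TFF1, and the deeper neck and gland cells secrete MUC6 with TFF2. Secreted mucins form the gel that covers the epithelium, and the small trefoil peptides are stored and released with them and take part in repair of the surface. MUC1 is a mucin anchored in the cell membrane, and TFF3 is the trefoil peptide of intestinal goblet cells that appears in the stomach in intestinal metaplasia. GKN1 is a secreted protein of surface cells that is commonly lost in gastric cancer, PGC is the zymogen of the protease pepsin C, ANXA10 is a calcium-dependent membrane-binding annexin typical of gastric epithelium, and CLDN18 is a tight-junction protein whose stomach isoform is a target of antibody therapy.

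The libraries held between 12075813 and 19548445 counts. ZNF165 had 2115, 1977 and 1909 counts with overexpression against 156, 140 and 277 in MKN45 controls, and 74, 40 and 22 with knockdown against 262, 186 and 287 in MKN28 controls. It was higher with overexpression (log2 fold change 3.09, adjusted p = 0.0109) and lower with knockdown (log2 fold change −1.47, adjusted p = 0.0459; edgeR's quasi-likelihood test with Benjamini-Hochberg adjustment). The knockdown call held without knockdown replicate 1 (adjusted p = 0.0116) and not without any other library (adjusted p of 0.0604 to 0.173, log2 fold changes of −1.63 to −1.23). The overexpression call was lost without overexpression replicate 1 or 2 (adjusted p of 0.0662 and 0.0707, log2 fold changes of 3.05 and 3.12). The description of knockdown replicates 2 and 3 names ZNF166 and ZNF167, while the genotype field of all 3 gives ZNF165, which was followed. Knockdown libraries stood apart in how counts followed gene structure: the Spearman correlation, across genes, of level with transcript length lay between −0.0273 and 0.0605 with knockdown, against 0.234 to 0.314 in MKN28 controls. MKN45 control replicate 2 also stood apart, at 0.152 where the other MKN45 controls had 0.284 and 0.238. The label of gastric cancer cells was checked against epithelial markers, and all 8 (EPCAM, CDH1, KRT8, KRT18, KRT19, CLDN3, CLDN4 and CLDN7) had at least 10 counts in every library.

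Nearly all counts of the set lay in MKN45. The 10 together took 0.0374%, 0.0466% and 0.0464% of all counts in the overexpression libraries, 0.0359%, 0.0370% and 0.0341% in MKN45 controls, 0.000311%, 0.000432% and 0.000290% in knockdown libraries, and 0.001%, 0.0013% and 0.000439% in MKN28 controls. Members with at least 10 counts in every library of the group numbered 5 with overexpression (MUC5AC, MUC1, TFF1, TFF2 and ANXA10), 4 in MKN45 controls (the same without TFF2), 1 with knockdown and 1 in MKN28 controls (MUC1 in each). GKN1 had 0 counts in all 12 libraries, which allows a level of up to 0.0148 CPM over their summed totals. CPM stands for counts per 1000000 counts of the library, and levels are scaled by TMM factors over all 12 libraries unless stated otherwise. MUC6 had 3, 1 and 1 counts with overexpression, 2 counts in MKN28 control replicate 1 and no count elsewhere. MUC6, the gland mucin, and GKN1 were thus at or near the floor in both lines. In bulk RNA a smaller share of expressing cells and less RNA per cell cannot be told apart.

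**Figure D1:**
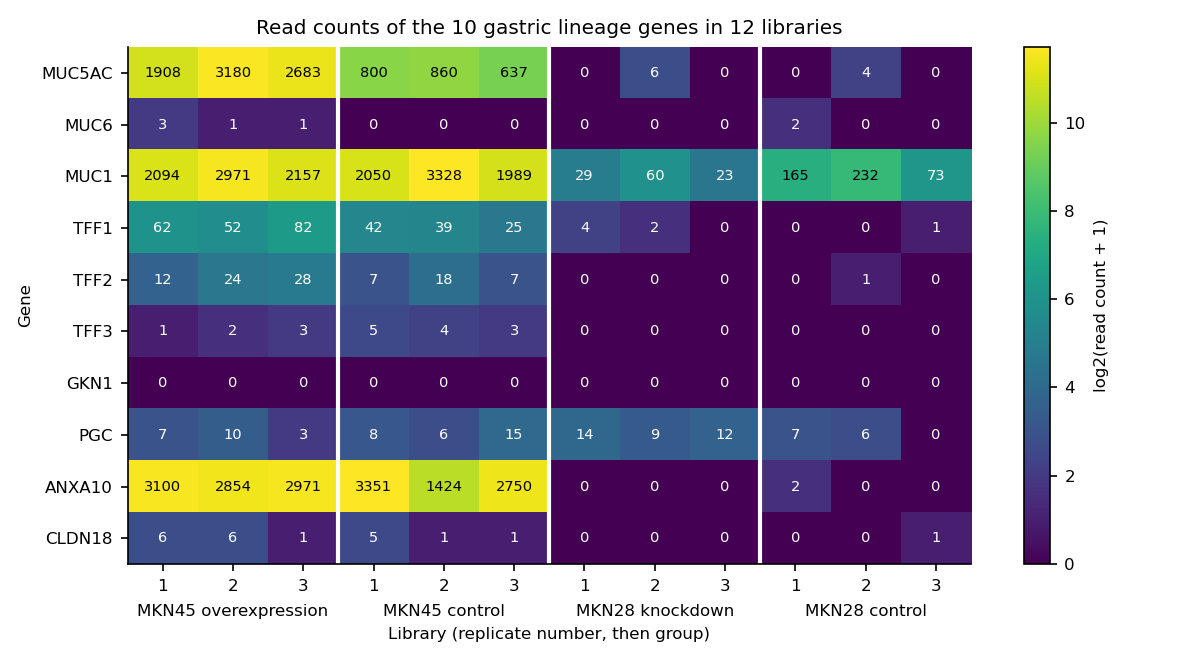
Read counts of the 10 genes (rows) in the 12 libraries (columns: replicate within group), with colour giving log2(count + 1). MUC5AC, MUC1 and ANXA10 held from 637 to 3351 counts in each MKN45 library, whereas MUC1 alone reached 10 counts in every MKN28 library and GKN1 is at 0 throughout.

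Per length, the members spanned a wide range within MKN45. Levels were divided by the longest basic GENCODE 29 transcript in kilobases. ANXA10 came first, with 95.6 ± 8.2 CPM per kb with overexpression and 97.1 ± 27.9 in controls (SD, n = 3 each), and MUC1 followed with 26.1 ± 4.15 CPM per kb with overexpression and 34.3 ± 15.2 in controls. In overexpression libraries MUC5AC (6.74 ± 1.62 CPM per kb) and TFF1 (5.45 ± 1.66) came next, and the ranges of this pair overlap, so their order is not resolved. In MKN45 controls MUC5AC had 2.51 ± 0.607 CPM per kb and TFF1 3.64 ± 1.02, and these ranges overlap too. TFF2 lay below them at 1.33 CPM per kb with overexpression and 0.862 in controls. PGC, TFF3 and CLDN18 lay lower still, at means of 0.0349 to 0.396 CPM per kb over both MKN45 groups, and PGC overlaps TFF2 in the MKN45 controls, so that order is not resolved there. MUC5AC, MUC6 and MUC1 carry long tandem repeats, and how the counting placed reads in repeats is not given in the sources used here, so a level per length is less certain for them.

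How far the lines differed before ZNF165 was altered was read from the control libraries, MKN45 against MKN28. ANXA10 had 3351, 1424 and 2750 counts in MKN45 controls against 2, 0 and 0 in MKN28 controls. The ratio by library totals was 4120, with a 95% counting interval of 1140 to 34000 that covers counting error only. Its MKN45 control levels were 166, 92.3 and 155 CPM, with replicate 2 the lowest. The gene lies on GRCh38 chromosome 4 at 168092515 to 168187690 on the plus strand.

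MUC5AC, the gel-forming surface mucin, had 800, 860 and 637 counts in MKN45 controls against 0, 4 and 0 in MKN28 controls. The fitted log2 fold change was 9.30 (SE 0.77, adjusted p = 2.24e-06, edgeR). MUC5AC passed the filter on low counts through the MKN45 libraries alone, so the test is given as a description. All 4 MKN28 control counts came from replicate 2, and without that library the MKN28 controls held none. The fitted value then was 12.74, against a group at 0. By library totals the ratio was 629 (95% counting interval 245 to 2310). MUC5AC lies on chromosome 11 at 1157953 to 1201138 on the plus strand, in a cluster with MUC6 (1012821 to 1036706, minus strand), MUC2 and MUC5B.

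MUC1, the membrane mucin, was the one member present at depth in both lines. It had 101, 216 and 112 CPM in MKN45 controls against 7.55, 11.7 and 3.34 CPM in MKN28 controls, and the groups were far apart. The fold was 19.5 (log2 fold change 4.29, SE 0.51, adjusted p = 3.44e-05, edgeR). MUC1 lies on chromosome 1 at 155185824 to 155192916 on the minus strand. It overlaps AL713999.1, a gene on the same strand that had 43 counts in 4 of the 12 libraries, against 15171 for MUC1.

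The trefoil genes, which lie side by side on the minus strand of chromosome 21 (TFF3 at 42311667 to 42315651, TFF2 at 42346357 to 42351128, TFF1 at 42362282 to 42366594), showed the same split at lower levels. TFF1 had 42, 39 and 25 counts in MKN45 controls against 0, 0 and 1 in MKN28 controls, a ratio by library totals of 116 (95% counting interval 20.4 to 4630, edgeR adjusted p = 6.71e-05). Like MUC5AC, TFF1 passed the filter on low counts through the MKN45 libraries alone. TFF2 had 7, 18 and 7 counts in MKN45 controls against 0, 1 and 0 in MKN28 controls, a ratio of 35.1 (95% counting interval 5.86 to 1430), but it did not pass the filter on low counts. TFF3 had 5, 4 and 3 counts in MKN45 controls and none in MKN28 controls, at least 4.38-fold higher when the MKN28 controls are set to a floor of 3 counts in all, and did not pass the filter either. In each of these genes every MKN45 control lay above every MKN28 control, as for 26.8% of all genes tested.

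Among the remaining genes, CLDN18 had 5, 1 and 1 counts in MKN45 controls against 0, 0 and 1 in MKN28 controls, a difference within counting error (ratio 7.67, 95% counting interval 0.985 to 346). Gene counts do not separate the stomach isoform of CLDN18 from the lung isoform. PGC had 8, 6 and 15 counts in MKN45 controls against 7, 6 and 0 in MKN28 controls, a ratio of 2.44 (95% counting interval 1.23 to 5.12). Over all 6 libraries of a line, PGC had 49 counts in MKN45 and 48 in MKN28. Of the 10 members 4 passed the filter in this comparison, and all 4 were called higher (ANXA10, MUC5AC, TFF1 and MUC1). Over all 16088 genes tested, 21.4% were called higher and 41.8% in either direction. ANXA10, MUC5AC and TFF1 passed the filter through the MKN45 libraries alone, where they are high, so they had to differ and the count is given as a description.

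Promoters of 5 members are in the RefSeq table (GRCh38.p14), and 3 are shown because their genes have contrasting patterns: ANXA10 and MUC1, the most abundant per length and both MKN45-high, and PGC, low in every library. Each is 300 bases, 5′ to 3′ on the gene's strand, with 250 before the listed start: ANXA10 at chr4:168092287-168092586 (plus strand), MUC1 at chr1:155192866-155193165 (minus strand) and PGC at chr6:41747348-41747647 (minus strand). Capitals mark matches to TATAAA and, in MUC1, to the GC box GGGCGG.
ANXA10: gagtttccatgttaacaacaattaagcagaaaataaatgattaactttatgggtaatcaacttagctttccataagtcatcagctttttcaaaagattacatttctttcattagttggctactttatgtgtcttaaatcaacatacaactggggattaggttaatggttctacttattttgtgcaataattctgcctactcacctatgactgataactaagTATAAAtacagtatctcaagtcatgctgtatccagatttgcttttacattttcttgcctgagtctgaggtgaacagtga
MUC1: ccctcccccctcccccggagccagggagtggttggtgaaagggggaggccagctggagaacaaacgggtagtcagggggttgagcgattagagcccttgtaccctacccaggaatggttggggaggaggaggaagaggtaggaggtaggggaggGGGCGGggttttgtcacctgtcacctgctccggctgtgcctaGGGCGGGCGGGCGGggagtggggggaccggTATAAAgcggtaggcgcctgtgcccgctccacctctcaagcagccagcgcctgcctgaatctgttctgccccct
PGC: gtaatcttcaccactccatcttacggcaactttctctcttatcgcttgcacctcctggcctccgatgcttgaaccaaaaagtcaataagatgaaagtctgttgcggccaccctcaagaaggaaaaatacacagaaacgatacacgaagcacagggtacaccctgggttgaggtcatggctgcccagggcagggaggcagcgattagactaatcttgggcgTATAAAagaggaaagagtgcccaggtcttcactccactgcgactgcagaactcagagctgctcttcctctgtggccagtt
TATAAA begins at position −29 in ANXA10, −24 in MUC1 and −30 in PGC, counted from the start. It was searched on both strands, as were the other motifs, and is present in 11.6% of the 34796 promoter windows of this length. MUC1 holds 4 matches to GGGCGG, of which the 3 nearest to the start overlap one another, and 44.9% of windows hold at least 1. The base composition also differs, with 32.7% G and C in the ANXA10 window, 65.7% in that of MUC1 and 50.7% in that of PGC. No match to TGACTCA (4.96% of windows), TGTTTAC (3.42%) or AGATAA (10.4%) was found in these 3 windows. A match is a description of the letters only.

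Overexpression of ZNF165 in MKN45 went with more MUC5AC, by 2.72-fold, and with no called change in the other 4 members tested. MUC5AC had 85.2, 137 and 131 CPM with overexpression against 39.6, 55.8 and 35.8 CPM in MKN45 controls, means of 118 ± 28.3 and 43.7 ± 10.6 CPM (SD, n = 3 each). Every overexpression library lay above every control, as for 18.9% of all genes tested. The log2 fold change was 1.44 (SE 0.28, adjusted p = 0.0489, edgeR). Of 5 members tested 1 was called, while 1.13% of the 15833 genes tested were called in either direction and 0.935% higher. The call lies near the threshold: it held without MKN45 control replicate 2 (1.66, adjusted p = 0.0124, edgeR), but leaving out any other library gave adjusted p between 0.0539 and 0.199, with log2 fold changes of 1.31 to 1.62. It was also lost with upper-quartile scaling (adjusted p = 0.0505) and with all 12 libraries in one edgeR fit (adjusted p = 0.51).

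Ratios within a library, which need no scaling to library size, reuse the same MUC5AC counts and moved the same way. Trends of level with transcript length or GC content stay in them. MUC5AC (17.45 kb, 60.3% G and C) and ANXA10 (1.42 kb, 40.9%) differ in both. MUC5AC counts per ANXA10 count were 0.615, 1.11 and 0.903 with overexpression against 0.239, 0.604 and 0.232 in MKN45 controls. These values are 2.45 times as high on average, with the lowest overexpression library just above the highest control, which was replicate 2. MUC5AC counts per MUC1 count were 0.911, 1.07 and 1.24 with overexpression against 0.39, 0.258 and 0.32 in controls, 3.33 times as high on average. Each ratio gave an exact two-sided permutation p of 0.1, the smallest that 3 against 3 allow. A ratio shows unequal change of its 2 genes, not which of them changed.

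The partner trefoil of MUC5AC, TFF1, had 2.77, 2.23 and 4.01 CPM with overexpression against 2.08, 2.53 and 1.41 CPM in MKN45 controls. The groups overlap, and the log2 fold change of 0.60 (SE 0.35) did not pass the test (adjusted p = 0.302, edgeR). TFF2 had 0.536, 1.03 and 1.37 CPM with overexpression against 0.346, 1.17 and 0.394 CPM in controls (log2 fold change 0.66, SE 0.57, adjusted p = 0.468, edgeR). Here control replicate 2 reached the level of the overexpression libraries. TFF3 had 1, 2 and 3 counts with overexpression against 5, 4 and 3 in controls, too few for the filter.

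MUC1 had 93.5, 128 and 106 CPM with overexpression against 101, 216 and 112 CPM in MKN45 controls. The log2 fold change was −0.38 (SE 0.31, adjusted p = 0.444, edgeR), and it was 0.04 without MKN45 control replicate 2, which is the highest MUC1 library of the series. ANXA10 averaged 135 ± 11.7 CPM with overexpression and 138 ± 39.6 CPM in controls (SD, n = 3 each), a log2 fold change of −0.01 (SE 0.25, adjusted p = 0.985, edgeR). PGC had 7, 10 and 3 counts with overexpression against 8, 6 and 15 in controls, and CLDN18 had 6, 6 and 1 against 5, 1 and 1. Neither was tested at this depth.

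**Figure D2:**
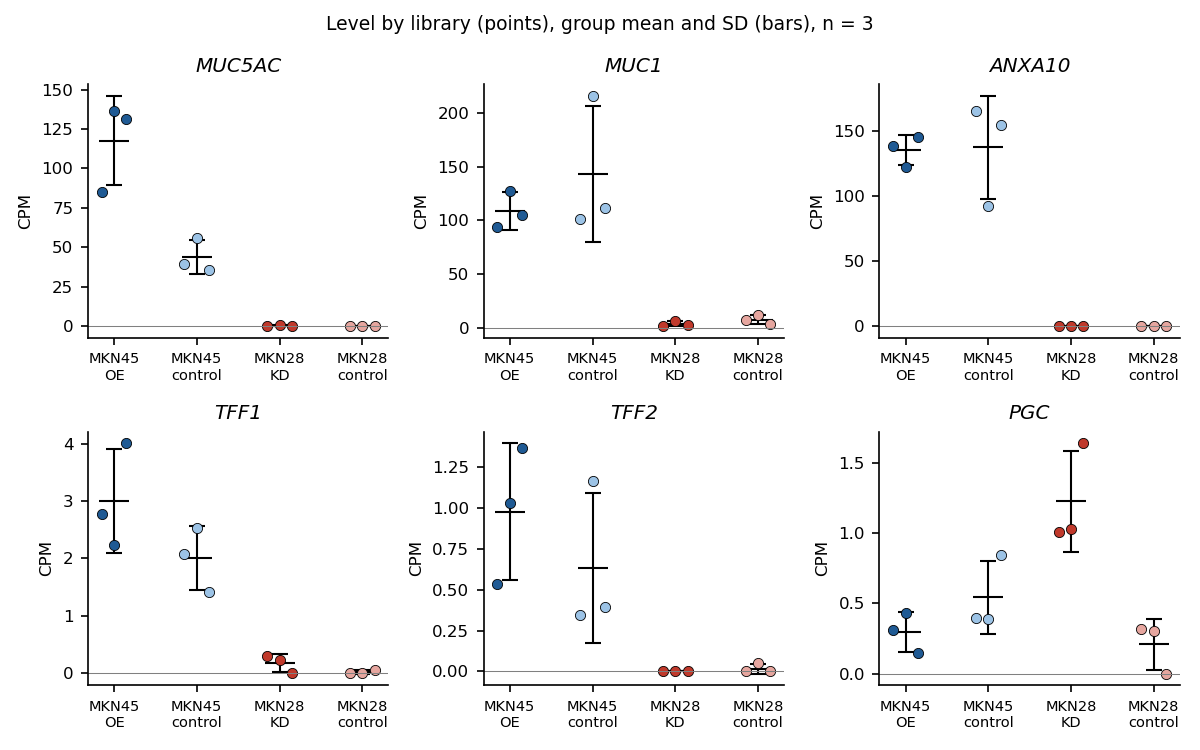
Levels in CPM of 6 members in each library (points) with the group mean and SD (bars, n = 3) on separate linear axes. MUC5AC lies at 85.2 to 137 CPM with overexpression, above all MKN45 controls, and PGC lies at 1.01 to 1.64 CPM with knockdown, above the other groups.

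In MKN28 the knockdown of ZNF165 left most of the set at or near 0, and the single member tested, MUC1, was not called. MUC1 had 2.10, 6.86 and 3.15 CPM with knockdown against 7.55, 11.7 and 3.34 CPM in MKN28 controls, and the groups overlap through knockdown replicate 2 and control replicate 3. The log2 fold change was −0.93 (SE 0.65, adjusted p = 0.267, edgeR), beside a median of −0.197 over the 14939 genes tested. Thus 0 of 1 member tested was called by edgeR, where 40.8% of all genes tested were called. It was also 0 with DESeq2, which called 7289 of the 14939 genes. At an unadjusted p under 0.05 it was 0 too, where 50.9% of all genes tested were. Leaving out single libraries gave log2 fold changes of −1.55 to −0.52. The value passed the test with library totals alone (−1.85, adjusted p = 0.0436, edgeR), a scaling that moves the median of all genes to −0.917, and with offsets for length and GC content (−1.29, adjusted p = 0.0375). The MUC1 transcript is 71.2% G and C, and the correlation of level with GC content across genes was 0.0622, 0.337 and 0.331 in knockdown libraries against −0.0523, 0.0899 and −0.0995 in MKN28 controls. The part of this difference between libraries in the value was not tested beyond those offsets.

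PGC, the pepsin C zymogen, stood higher in every knockdown library than in any MKN28 control. It had 14, 9 and 12 counts with knockdown against 7, 6 and 0 in MKN28 controls, or 1.01, 1.03 and 1.64 CPM against 0.320, 0.302 and 0 CPM. The groups do not overlap, as is the case with knockdown higher for 23.3% of all genes tested. PGC did not pass the filter. The exact two-sided permutation p was 0.1, the smallest possible, and without the filter the log2 fold change was 2.39 (adjusted p = 0.0687, edgeR). With all 12 libraries in one fit it was 2.52 (adjusted p = 0.0157, edgeR). PGC passed the filter there mainly through knockdown libraries, where it is high, so this value is given as a description. By library totals the ratio was 3.19 (95% counting interval 1.65 to 6.58).

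The other members had few counts in MKN28. TFF1 had 4, 2 and 0 counts with knockdown against 0, 0 and 1 in controls, a ratio of 7.12 with a 95% counting interval of 0.863 to 327. MUC5AC had 0, 6 and 0 counts with knockdown against 0, 4 and 0 in controls, so the counts of both groups sat in replicate 2. ANXA10 had no count with knockdown and 2 in control replicate 1. TFF2 and CLDN18 had none with knockdown and 1 each in controls, MUC6 had none with knockdown and 2 in controls, and TFF3 and GKN1 had none in either group. TFF1 was called higher with all 12 libraries in one fit (3.13, adjusted p = 0.03, edgeR), where it passed the filter through MKN45. Its MKN28 groups overlap, with an exact two-sided permutation p of 0.4. Without the filter it was not called in the MKN28 libraries (2.92, adjusted p = 0.201, edgeR). For the others no difference was detectable at this depth.

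Whether ZNF165 had a different effect in each line was tested with a contrast over all 12 libraries. It takes the effect of higher against lower ZNF165 in MKN45 minus that in MKN28 and equals the sum of the overexpression and knockdown log2 fold changes. Over all 17266 genes tested edgeR called 17.5%, DESeq2 called 4730, and 35% were at an unadjusted p under 0.05. Of 6 members tested 0 were called by edgeR, 1 was at an unadjusted p under 0.05 and DESeq2 called 1. That member was TFF1, at 3.72 (SE 1.24, adjusted p = 0.0511, edgeR) and 4.19 by DESeq2 (adjusted p = 0.0274). Over the alternatives its adjusted p ranged from 0.0274 to 0.305, and the estimate rests on 7 counts in the 6 MKN28 libraries. MUC1 was at −1.30 (SE 0.72, adjusted p = 0.208, edgeR). MUC5AC was at 3.05 (SE 1.48, adjusted p = 0.156, edgeR), an estimate that rests on 10 MKN28 counts, all in replicate 2 of either group. It was −1.956 without knockdown replicate 2 (adjusted p = 0.594, edgeR), 6.35 without MKN28 control replicate 2 (adjusted p = 0.0443) and 3.83 without knockdown replicate 1 (adjusted p = 0.0287), so its sign and call turn on single libraries.

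**Figure D3:**
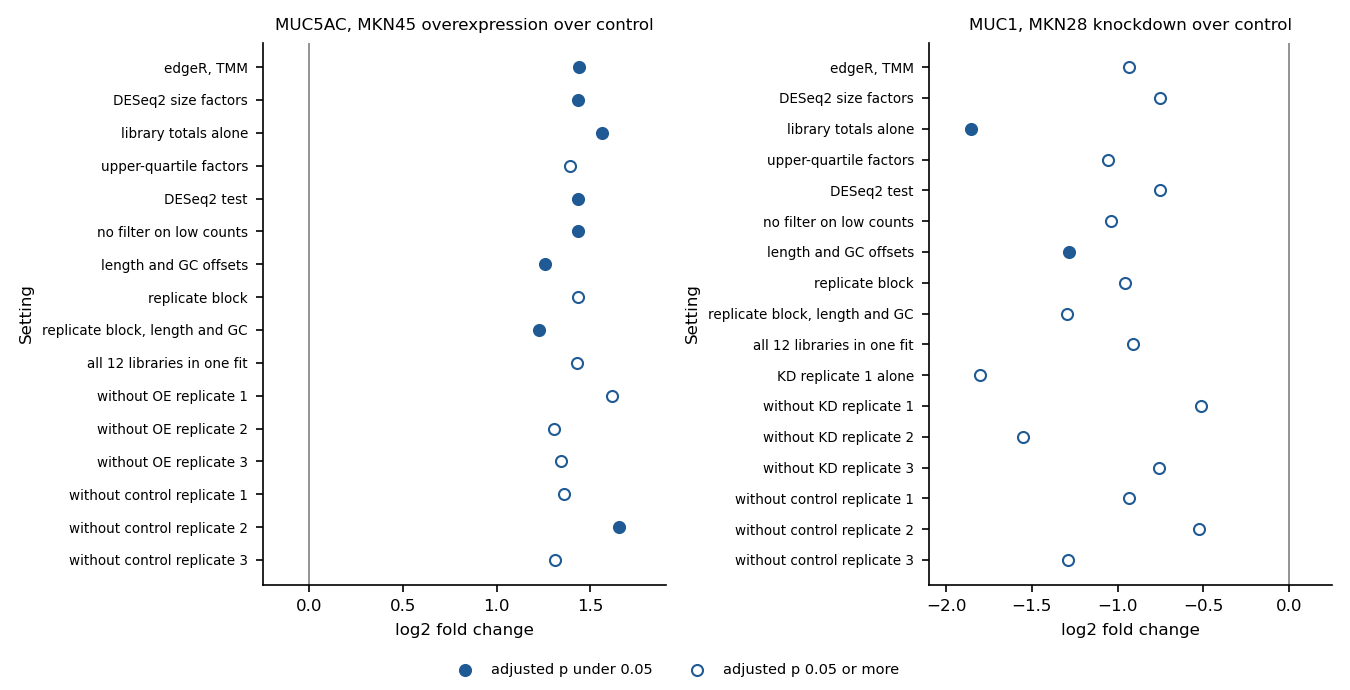
Log2 fold change of MUC5AC with overexpression over MKN45 control (left) and of MUC1 with knockdown over MKN28 control (right) under each setting (rows), with filled points where the adjusted p was under 0.05. MUC5AC stays between 1.22 and 1.66 and MUC1 between −1.85 and −0.52, with calls that depend on the setting.

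Other genes of mucus production were taken from lists of related genes. Between the lines, genes of mucin folding and the mucous granule were called higher in MKN45 controls for 9 of 15 tested and lower for 0 (median log2 fold change 3.36, beside −0.0391 over all genes, of which 21.4% were called higher). Of those 9, 4 (ERN2, SPDEF, DMBT1 and AGR3) had under 10 counts in every MKN28 control, so they passed the filter through MKN45 and had to differ. The same holds for 5 of the 12 transcription factors, 4 of the 13 O-glycosylation enzymes, MUC13, LYZ and VSIG1 among the genes called higher below, and in the other direction for GCNT4, MUC15 and GAST. The rule of under 10 counts in every library leaves out genes that reached 10 in a single MKN28 control. Such genes are AGR2, with 6, 13 and 3 counts there, and MUC4, with 6, 10 and 2. They too passed the filter through MKN45 and had to differ. The counts of called genes are given as descriptions. AGR2, a disulfide isomerase needed for mucin folding, had 137500 counts over the MKN45 controls against 22 over the MKN28 controls (log2 fold change 12.78, adjusted p = 2.01e-07, edgeR), and its paralog AGR3 had 10641 against 4. Of gastric lineage transcription factors, 12 of 20 were called higher and 1 lower in MKN45 controls (median 2.63). SOX21 had 230 counts over the MKN45 controls and none over the MKN28 controls, at least 84-fold higher, and GRHL2 was lower (−1.41, adjusted p = 0.00597, edgeR). Of the mucin O-glycosylation enzymes, 13 of 24 were called higher and 3 lower (median 1.25). GALNT14 and GALNT5, which start the sugar chains, had 1998 against 1 and 1387 against 2 counts, while FUT3, the fucosyltransferase of Lewis antigens, was lower in MKN45 (−4.45, adjusted p = 7.24e-06, edgeR).

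Mucins outside the set did not share one direction between the lines: 4 of 8 tested were called higher and 2 lower in MKN45 controls (median 1.18). MUC13, a membrane mucin of the gut, had 605 counts over the MKN45 controls and none over the MKN28 controls, at least 221-fold higher, and MUC4 was 33.1-fold higher (adjusted p = 1.88e-05, edgeR). MUC15 went the other way, with none over the MKN45 controls and 84 over the MKN28 controls, at least 25.6-fold lower in MKN45, and MUC16, the CA-125 antigen, was lower (−2.18, adjusted p = 0.00737, edgeR). Among other gastric secretory and surface genes, 3 of 5 tested were called higher and 2 lower. VSIG1, a junction protein of gastric epithelium, had 5139 counts over the MKN45 controls and none over the MKN28 controls, at least 1880-fold higher. LYZ, lysozyme, had 5671 against 5 (the leukocyte marker PTPRC was at 0 in the MKN45 controls), while GAST, gastrin, had none against 94, at least 28.6-fold lower. Intestinal markers, a list that also holds TFF3, stood higher in sum as well. Their summed level was 330 to 478 CPM in MKN45 controls against 11.7 to 21.8 CPM in MKN28 controls, with CDX1, SI and ISX at 0 in both. LGALS4 (mean 274 CPM) and VIL1 (mean 102 CPM) made up most of the sum in MKN45 controls. FABP1 hardly differed, at means of 0.135 CPM in MKN45 controls and 0.107 CPM in MKN28 controls. Of 4 tested 3 were called higher (REG4, VIL1 and LGALS4). These had at most 1, 4 and 10 counts in any MKN28 control, so they passed the filter through MKN45 and had to differ. CDX2 was also tested and was not called. It had 16.1 ± 1.14 CPM in MKN45 controls and 15.6 ± 5.06 CPM in MKN28 controls (SD, n = 3 each). The part of the intestinal pattern in the gastric genes was not tested.

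With overexpression no gene of these 5 lists was called by edgeR, out of 7 other mucins, 5 secretory and surface genes, 24 O-glycosylation enzymes, 15 folding and granule genes and 20 transcription factors. At an unadjusted p under 0.05 there were 4, 1, 7, 7 and 5 in that order, where 26.8% of all genes tested were. DESeq2 called 3, 1, 3, 1 and 2 higher and 1 lower, a transcription factor. Over all 15833 genes tested DESeq2 called 1834, of which 56.6% were higher. The mucins called by DESeq2, chosen here after their values were seen, were MUC4, MUC13 and MUC16. MUC4 had 806, 662 and 325 counts with overexpression against 205, 148 and 162 in MKN45 controls (log2 fold change 1.49, adjusted p = 0.0531, edgeR). MUC13 had 566, 472 and 468 against 232, 182 and 191 (1.02, adjusted p = 0.0539, edgeR), and MUC16 had 207, 127 and 175 against 94, 18 and 41 (1.51, adjusted p = 0.0956, edgeR). In each, every overexpression library was above every control, as for 18.9% of all genes tested. MUC5B, the direct neighbour of MUC5AC, had 74, 61 and 35 counts with overexpression against 73, 68 and 29 in controls, which overlap.

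With knockdown the lists moved in mixed directions. Over all genes tested 40.8% were called, and the counts of called list genes here are to be read beside that share. Of 6 other mucins tested, 2 were called higher and 3 lower. MUC15 had no count with knockdown, so it passed the filter through the controls and had to differ. MUC16 and MUC3A with knockdown, and MUC4 and MUC12 in MKN28 controls, fell below 10 counts in some libraries. The filter was met through the other group for these too, and the calls are given as descriptions. MUC16 had 7, 12 and 4 counts with knockdown against 385, 271 and 120 in MKN28 controls (log2 fold change −3.96, adjusted p = 0.00412, edgeR), and MUC15 had none against 84, at least 23.6-fold lower. MUC4 was higher, with 22, 20 and 18 counts against 6, 10 and 2 (2.80, adjusted p = 0.0123, edgeR), a call lost without control replicate 1 (adjusted p = 0.0763) or 3 (adjusted p = 0.0662). MUC12 was higher at 2.22 (adjusted p = 0.0204, edgeR), a call lost without knockdown replicate 3 (adjusted p = 0.0517), control replicate 1 (adjusted p = 0.106) or control replicate 3 (adjusted p = 0.11). Of 19 O-glycosylation enzymes 6 were called lower and 0 higher by edgeR (9 at an unadjusted p under 0.05), among them GALNT7 (−2.89, adjusted p = 0.0105) and C1GALT1 (−2.49, adjusted p = 0.0302), the core enzyme of the chains. C1GALT1 was at −0.59 (adjusted p = 0.28) with offsets for length and GC content, and its call held without knockdown replicate 1 alone (adjusted p of 0.0519 to 0.0899 without any other library). The number of these enzymes called lower was 11 without knockdown replicate 1 and 1, 1, 1, 3 and 2 without knockdown replicates 2 and 3 and control replicates 1, 2 and 3. It was 12 with all 12 libraries in one fit and 0 with replicate 1 as the lone knockdown library, where GALNT7 was at −1.82 (adjusted p = 0.0515, edgeR).

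Of 10 folding and granule genes tested with knockdown, 2 were called higher and 2 lower, near the share of 40.8% over all genes tested. SPDEF, a transcription factor of mucous cells, had 22, 49 and 20 counts with knockdown against 7, 9 and 1 in MKN28 controls (3.53, adjusted p = 0.00918, edgeR). SYTL2 and RAB27B, which act in granule docking, had 3, 0 and 0 counts each with knockdown, against 504 and 429 over the MKN28 controls (−6.33 and −6.09, edgeR adjusted p of 0.0037 and 0.00367). SPDEF had under 10 counts in every control, as SYTL2 and RAB27B had in every knockdown library. These genes passed the filter through the other group and had to differ, so their tests are given as descriptions. Of 13 transcription factors 1 was called higher, ELF3 (2.26, adjusted p = 0.00941, lost without control replicate 1 or 3 at adjusted p of 0.0531 and 0.0539), and 2 lower, FOXQ1 (−3.28, adjusted p = 0.00425) and GRHL2 (−3.03, adjusted p = 0.00946, edgeR). Of the 8 epithelial markers 4 were called higher (KRT8, KRT18, KRT19 and CLDN4) and 1 lower, CDH1. The groups overlap for KRT19 (lowest knockdown 1379 CPM, highest control 1462 CPM) and for CLDN4 (4.05 and 4.49 CPM). CLDN4 ranged from 56 to 40987 counts among the knockdown libraries. CDH1 had 83.6 ± 24.7 CPM with knockdown and 337 ± 74.3 CPM in MKN28 controls (SD, n = 3 each, log2 fold change −2.05, adjusted p = 0.0075, edgeR). KRT8 had 31710 ± 20710 CPM with knockdown and 2550 ± 409.6 CPM in MKN28 controls, and EPCAM was not called (−0.03, adjusted p = 0.97, edgeR). The leukocyte marker CD14 was higher, with 123 counts over the knockdown libraries against 10 over the MKN28 controls (4.72, adjusted p = 0.00573, edgeR). CD14 had under 10 counts in every control, so it passed the filter through the knockdown libraries and had to differ. The summed level of the epithelial markers was 15900 to 80600 CPM with knockdown against 5880 to 7240 CPM in controls. The part of this in the list counts was not tested.

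**Figure D4:**
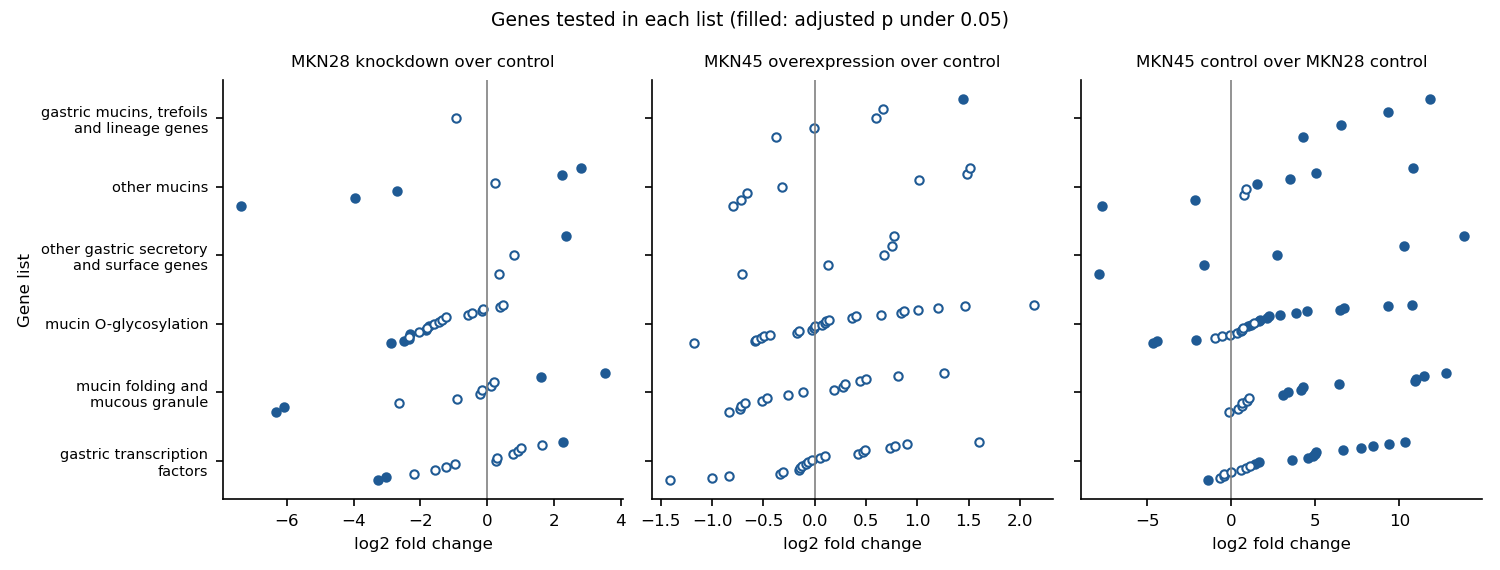
Log2 fold change of each tested gene (points) by gene list (rows) with MKN28 knockdown over control, MKN45 overexpression over control, and MKN45 control over MKN28 control (panels, with separate axes), filled where the adjusted p was under 0.05. With overexpression MUC5AC is the one filled point, and in the comparison of lines 9 of 15 folding and granule genes are filled, all to the right of 0.

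The genes whose log2(CPM + 1) profile over the 12 libraries lay nearest to a member's, among 14299 genes, were sought by the root mean square difference after centring. For ANXA10 these were CBX1 (difference 0.147) and AGR3 (0.246). CBX1, a chromodomain protein, had 138 ± 15.8 CPM with overexpression, 120 ± 28.2 in MKN45 controls and means under 0.1 CPM in both MKN28 groups (0.0838 with knockdown and 0.0336 in controls). For MUC5AC the nearest were PLEKHG4 (0.488) and ERN2 (0.507), the endoplasmic reticulum stress sensor of mucous cells, which had 52.1 ± 9.52 CPM with overexpression and 42.7 ± 8.88 CPM in MKN45 controls. The SD of the member's own profile was 3.69 for ANXA10, 3.18 for MUC5AC, 2.34 for MUC1 and 0.901 for TFF1, and a small SD allows a small difference. For MUC1 the nearest were CRAT (0.236) and EEPD1 (0.385), and for TFF1 SPATA6L (0.217) and STARD8 (0.237). The 12 points of each profile fall into the same pair of lines, so a like gap between the lines gives a small distance.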

How the data were processed

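RNA-seq libraries of 12 samples in 4 groups of 3 were grouped by the labels' genotype and cell line. The authors deposited 1 table of whole-number read counts per Ensembl gene, per the file headers and the values. Per the submitters' processing notes the tools were HISAT2, an aligner, and StringTie, a transcript assembler. Their versions, the genome build, annotation, strand setting and counting step are not stated, so reads of overlapping genes cannot be told apart. Counts were tested with edgeR 4.0.16 in R 4.3.3 (glmQLFit and glmQLFTest, TMM, filterByExpr with a minimum count of 10 and total of 15), adjusted over all genes tested by Benjamini-Hochberg and called under 0.05. Each effect of ZNF165 was fitted on the 6 libraries of its line, the lines on the 6 controls, and the difference of effects on all 12, so comparisons share control libraries. The tests were checked on simulated counts. DESeq2 1.42.0, other scalings, no filter, length and GC offsets, a replicate block, 1 joint fit and left-out libraries were alternatives. CPM are counts per 1000000, scaled by TMM over all libraries. A level of 3 counts lay between 0.129 and 0.411 CPM per library; floors and intervals cover counting error only. Replicates differed far beyond counting error, with a chi-square per degree of freedom of 20.6 to 436. The members and lists were chosen with earlier results of these data known. Named genes were all members and, per list and comparison, the 2 largest called changes in each direction without overlap, of which some are given. Control libraries of the lines deviated together by replicate number (correlations 0.336, 0.569 and 0.337). Unlike numbers did so too, MKN45 replicate 1 with MKN28 replicate 3 (0.332) and MKN45 replicate 3 with MKN28 replicate 1 (0.182). Replicate 2 stood apart from 1 and 3 in both lines, so these values do not show that the numbers pair the libraries. With and without the block 4 members were called. Positions are from GENCODE 29 and promoters from RefSeq.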

Additional observations from a re-analysis of the deposited data

Results flagged for a closer look

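MUC1 was singled out because every overexpression library lay below the MKN45 control mean and every knockdown library below the MKN28 control mean, so the effect of higher against lower ZNF165 had opposite signs in the lines. The MKN45 sign rests on control replicate 2, without which the overexpression log2 fold change was 0.04. The sum of the overexpression and knockdown log2 fold changes was −1.3. The test of this difference over all 12 libraries did not pass (SE 0.72, adjusted p = 0.208, edgeR), and neither effect was called alone.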

How the results depend on the processing

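The number of members called was the result compared. With knockdown it was 0 and became 1 with library totals alone and 1 with length and GC offsets (MUC1 lower in each). It became 2 with all 12 libraries in one fit (PGC 2.52 and TFF1 3.13 higher). There PGC passed the filter mainly through knockdown libraries and TFF1 through MKN45. Leaving out any single library gave 0. With overexpression it was 1 (MUC5AC) and became 0 with upper-quartile factors, 0 with the replicate block (MUC5AC 1.44, adjusted p = 0.0944, edgeR) and 0 with all 12 libraries in one fit; leaving out single libraries gave 0 to 1. Between the lines it was 4 and stayed between 4 and 6, with TFF2 and TFF3 added without the filter. For the difference of effects it was 0 and became 1 with DESeq2 size factors and 1 with DESeq2's test (TFF1), and 1 with library totals alone, 1 with length and GC offsets and 1 with the replicate block plus those offsets (MUC1 lower); leaving out single libraries gave 0 to 1 (MUC5AC without knockdown replicate 1 or MKN28 control replicate 2, TFF1 without knockdown replicate 3). Replicate numbers did not pair the samples within a line (same-number correlations 0.314, 0.478 and −0.403 for knockdown and its controls, −0.102, −0.059 and 0.096 for overexpression and its controls). Over all genes, called counts with overexpression were 179, but 1834 with DESeq2, 722 without the filter, 1099 with length and GC offsets, 8 with the block, 3 in the joint fit and 1 to 1338 with a library left out; 82.7% were higher, against 56.6% with DESeq2. With knockdown 6092 were called (47% higher; 25.1% with library totals alone), 3352 with replicate 1 as the lone knockdown library, whose spread is then assumed to be that of the controls, and 2642 to 10378 with a library left out. For the difference of effects 3017 were called, 4730 with DESeq2 and 1163 to 8210 with a library left out. GAST and VAMP8, called higher with knockdown, lost their calls with length and GC offsets (−0.0046 and −0.21) and with these and the block (−0.12 and −0.22). Neither was called lower there, and the cause was not tested. Depth limits 9 of the 10 members in MKN28.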

Other observations

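Pepsinogen genes beside PGC were looked at after the PGC values were seen. PGA5 had 11, 1 and 3 counts and PGA3 2, 0 and 6 counts with knockdown, and neither had a count in any of the other 9 libraries. PGA4 had none in all 12. These genes are near-identical copies, so the split of reads between them is uncertain, and none passed the filter on low counts. MUC2, the intestinal gel-forming mucin of the same cluster as MUC5AC, had 6, 3 and 4 counts with overexpression against 1, 0 and 3 in MKN45 controls, and 0, 3 and 2 with knockdown against none in MKN28 controls.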
